A study of Rattus norvegicus with 12 samples.

Results

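The genes described here are 9 genes of mitosis and of entry into the cell cycle, namely Cenpe, Kif11, Bub1, Bub1b, Cdk1, Gtse1, Ccne2, Ccnd1 and E2f3, in rat sciatic nerve after injury. Their m6A peaks were found by position (rn5). A peak of the list belonged to a gene when it lay on the strand of that gene's named peak and within 20 kb of the named span. This gave 42 of the 4014 peaks of the list, on 7 chromosomes. Cenpe had 20 of them, Kif11 had 10, Bub1 had 3, Bub1b, Gtse1 and Ccne2 had 2 each, and Cdk1, Ccnd1 and E2f3 had 1 each.

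The animals were female Wistar rats of 100 to 120 g, 4 weeks old, and the tissue was about 1 cm of sciatic nerve. Control nerves were uninjured, and SNI nerves were taken at the centre of the lesion, 7 days after sciatic nerve injury. Each group had 3 animals, and each animal gave a library of RNA fragments bound by an antibody to m6A (IP) and a library of the unselected fragments (input), 12 libraries in all. The list holds the sites whose methylation differed between SNI and control over all animals together. Each has 1 score, the −log10 of its p-value, so that a higher score is a smaller p-value. The paper counted a site as altered only past cutoffs of fold change and p-value, so sites with weaker p-values are absent. A low score here is therefore low only within the list, and every median and share describes sites past those cutoffs. The list holds no value per animal, no depth, no fold change and no direction, and replicate error cannot be given for any peak. Nerve tissue holds Schwann cells, fibroblasts and immune cells together, and the list has no expression values by which cell types, or the labelled tissue itself, could be checked. A change in the amount of a transcript and a change in the methylation of each copy were not told apart here.

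Cells that divide copy their DNA in S phase and separate the copies in mitosis, and most of these 9 genes are expressed mainly in such cells. In the resting cell, Ccnd1 (cyclin D1) starts the release of the E2F transcription factors, E2f3 among them, from the retinoblastoma protein, and Ccne2 (cyclin E2) carries the cell into S phase. Cdk1 is the kinase that drives mitosis, and Kif11 and Cenpe are kinesin motors of the spindle. Bub1 and Bub1b are proteins of the checkpoint that holds anaphase until every chromosome is attached. Schwann cells of an injured nerve lose their myelin program, divide and line up as tracks for regrowing axons, while macrophages enter the nerve. m6A is a methyl mark on adenosine within messenger RNA, set by a METTL3 and METTL14 complex and read by proteins that change the decay and translation of the transcript.

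Some genes of this kind share promoter elements. The 4 promoters shown were picked because 3 of them hold CHR or E2F letters, elements known from cell cycle genes. The other belongs to the gene with the most peaks. The promoters shown therefore do not stand for all the genes described. The sequences are from RefSeq (GRCr8, a later build than that of the peaks) and run from 250 bases before the annotated start to 50 bases after it. Capitals mark letters on either strand that match the cell cycle gene homology region (CHR, TTTGAA or TTCGAA), an E2F site (TTTCCCGC, TTTCGCGC, TTTGCCGC or TTTGGCGC) or a CCAAT box (CCAAT). They lie at chr20:19265043-19265342 (plus strand), chr17:34810166-34810465 (plus), chr3:126016817-126017116 (plus) and chr2:226310807-226311106 (plus) for Cdk1, E2f3, Bub1b and Cenpe.
Cdk1: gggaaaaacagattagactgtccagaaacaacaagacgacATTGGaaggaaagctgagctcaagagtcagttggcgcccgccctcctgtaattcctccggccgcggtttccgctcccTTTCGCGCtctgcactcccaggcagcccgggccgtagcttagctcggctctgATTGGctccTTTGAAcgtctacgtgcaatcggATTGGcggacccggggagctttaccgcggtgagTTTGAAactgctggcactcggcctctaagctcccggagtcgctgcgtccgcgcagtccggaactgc
E2f3: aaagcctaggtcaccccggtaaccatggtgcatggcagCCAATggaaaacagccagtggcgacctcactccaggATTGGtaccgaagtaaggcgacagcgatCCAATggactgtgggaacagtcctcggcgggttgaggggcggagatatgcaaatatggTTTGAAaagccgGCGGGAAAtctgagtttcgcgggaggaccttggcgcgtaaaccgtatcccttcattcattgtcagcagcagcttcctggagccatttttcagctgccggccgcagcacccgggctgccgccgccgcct
Bub1b: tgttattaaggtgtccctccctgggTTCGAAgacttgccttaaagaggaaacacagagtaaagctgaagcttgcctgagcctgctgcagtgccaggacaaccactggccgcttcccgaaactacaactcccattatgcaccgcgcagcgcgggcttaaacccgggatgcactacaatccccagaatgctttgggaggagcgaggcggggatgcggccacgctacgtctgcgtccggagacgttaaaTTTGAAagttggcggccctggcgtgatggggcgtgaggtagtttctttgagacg
Cenpe: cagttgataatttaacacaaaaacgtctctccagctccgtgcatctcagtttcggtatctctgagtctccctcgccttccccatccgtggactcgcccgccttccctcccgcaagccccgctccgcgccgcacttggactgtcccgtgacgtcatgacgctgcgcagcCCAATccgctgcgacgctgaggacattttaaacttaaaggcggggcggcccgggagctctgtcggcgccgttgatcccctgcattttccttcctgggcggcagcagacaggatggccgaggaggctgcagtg
A promoter was at hand for 7 of the 9 genes. CHR letters were found in 3 of the 7, those of Cdk1, E2f3 and Bub1b, against 19.7% of the 33469 promoters of the same length. E2F letters were found in 2, those of Cdk1 and E2f3, against 2.14% of all promoters. A CCAAT box was found in 4, against 37.5%. In Cdk1 the CHR letters start 72 and 16 bases before the annotated start and the E2F letters 133 bases before it, and in E2f3 the CHR letters start 90 and the E2F letters 78 bases before it. No match overlapped another. The promoters of Bub1 and Gtse1 held none of these letters. The motifs were chosen after the promoters had been seen, so the shares are a description only. A match is only a run of letters, and the promoters were not measured in this series.

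The median score of the 42 peaks was 7.87 (lowest 5.18, highest 12.8), beside a median of 7.46 over all 4014 peaks. A score of at least 8 was reached by 20 of the 42 (47.6%), and by 37.1% of the whole list. A score of at least 10 was reached by 11 (26.2%), and by 15.5% of the whole list. By gene, 8 of the 9 had a peak of at least 8 and 7 had a peak of at least 10. A gene with more peaks has more occasions to hold a high one, and no such count was made for the other genes of the list. The higher share was not seen in the peaks that are named for these genes. The study's annotation, as far as its rows were used here, names 19 of the 42 peaks for these genes, and 7 of the 19 (36.8%) scored at least 8, the share of the list, against 13 of the 23 (56.5%) without such a name. None of the 42 was named for another gene in those rows. Only a part of the annotation was at hand, so some of the 23 may be named in the rest.

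**Figure D1:**
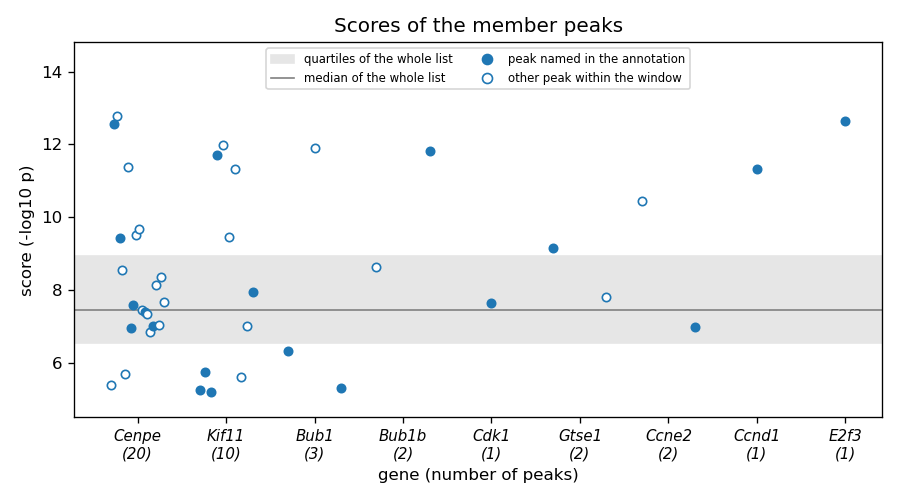
Each point is 1 m6A peak, with its gene on the horizontal axis and its score (−log10 p) on the vertical axis. Filled points are the 19 peaks named in the annotation, open points the other 23, and the grey band and line are the quartiles (6.55 and 8.93) and median (7.46) of all 4014 peaks; Cenpe and Kif11 span from below 6 to 12.8 and 12.0, while the single E2f3 peak stands at 12.6.

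Cenpe encodes CENP-E, the kinesin that carries chromosomes along microtubules to the middle of the spindle. Its 20 peaks lay on the plus strand of chromosome 2 from 258919757 to 258958080, a stretch of 38.3 kb, and covered 8.82% of it. In order along the strand, the scores of the leftmost 11 peaks were 5.39, 12.5, 12.8, 9.44, 8.55, 5.69, 11.4, 6.96, 7.58, 9.50 and 9.66. Those of the 9 peaks to their right were 7.45, 7.39, 7.33, 6.84, 7.01, 8.13, 7.04, 8.36 and 7.66. The high scores thus lay in the left of the stretch, and the right held a narrow range around the median of the list. The highest score of the gene, 12.8, was that of the peak from 258921483 to 258921565 and ranked 21 in the whole list. The peak from 258919757 to 258919876 and its neighbour from 258920482 to 258920602 differed by 7.16, the largest of the 1756 steps between neighbouring peaks of 1 strand at most 20 kb apart in the list. The median step along Cenpe was 1.08, beside 1.17 over those 1756. In all, 9 of the 20 (45.0%) scored at least 8. The largest gap without a peak, 9467 bases, followed the 3 leftmost peaks, and the median gap was 1345 bases.

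Kif11 encodes Eg5, the kinesin that pushes the spindle poles apart. Its 10 peaks lay on the plus strand of chromosome 1 from 263519575 to 263565360, over 45.8 kb, with a median gap of 5408 bases and 3.57% of the stretch covered. The 4 peaks in the middle had scores of 11.7 (263534760 to 263535003), 12.0 (263544165 to 263544254), 9.46 (263550772 to 263550961) and 11.3 (263551408 to 263551616). The 3 peaks to their left had scores of 5.24, 5.75 and 5.18, and the 3 to their right 5.61, 7.0 and 7.94. No outer peak reached 8, and no middle peak fell below 9. The peak from 263534428 to 263534519, with the lowest score of all 42 (5.18), ended only 241 bases before the peak of 11.7. So the stretches of both motors held some of the highest and some of the lowest scores of the list. The high ones lay at the left in Cenpe and in the middle in Kif11. The annotation rows used here name 6 of the 20 Cenpe peaks and 5 of the 10 Kif11 peaks, and not the highest peak of either. The unnamed peaks were assigned by position only and their direction is not known. Whether all peaks of a stretch belong to 1 transcript was not tested.

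**Figure D2:**
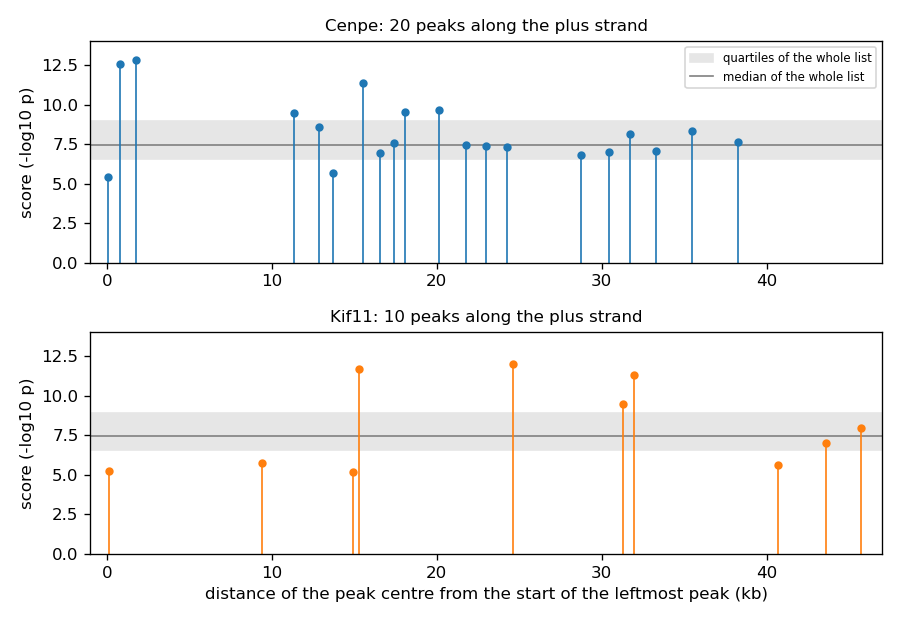
Each stem is 1 peak of Cenpe (upper) or Kif11 (lower), at the distance of its centre from the start of the leftmost peak in kb, with its score (−log10 p) as height. The 3 highest Cenpe peaks lie within the left 16 kb and reach 12.8, and the 4 Kif11 peaks above 9 lie between 15 and 32 kb, with all 6 others below 8.

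Bub1 encodes the checkpoint kinase that marks centromeric chromatin and recruits other checkpoint proteins to kinetochores. Its 3 peaks lay on the plus strand of chromosome 3, from 126934461 to 126934495 (score 6.31), from 126938752 to 126938937 (11.9) and from 126946569 to 126946666 (5.31). The RefSeq promoter of Bub1 (GRCr8) is on the minus strand, and whether the gene lies the other way round in rn5 was not tested. The middle peak, which the annotation rows used here do not name, had the only high score of this gene and ranked 133. Bub1b encodes BubR1, which binds and blocks the anaphase-promoting complex. Its 2 peaks, also on the plus strand of chromosome 3, ran from 116934361 to 116934562 (8.62) and from 116937925 to 116938038 (11.8, rank 150). Both Bub1b peaks were above 8, against 1 of 3 in Bub1, and each of these checkpoint genes had a peak close to 12.

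Cdk1 had a single peak, on the plus strand of chromosome 20 from 22694920 to 22694996, with a score of 7.63. It was the only 1 of the 9 genes without a peak of at least 8. Gtse1 encodes a microtubule-bound protein of G2 and S phase that restrains p53. It had 2 peaks on the plus strand of chromosome 7. That at 126447843 to 126447961 scored 9.15, and that at 126449741 to 126450319, with 578 bases the longest of the 42, scored 7.81.

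The genes of cell cycle entry had few peaks. Ccne2 had 2 on the plus strand of chromosome 5, from 29160460 to 29160550 (10.4, rank 507) and from 29161525 to 29161625 (6.99). Ccnd1 had 1 on chromosome 1, from 224969521 to 224969658, with a score of 11.3 (rank 262), and it was the only peak of the 42 on the minus strand. E2f3 had 1 on the plus strand of chromosome 17, from 37641854 to 37642172, with a score of 12.6. It thus had a score close to the Cenpe maximum, from 1 peak of 318 bases against 20 peaks with a median of 159 bases.

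The genes had from 1 to 20 peaks. Same-strand peaks at most 20 kb apart were joined to groups across the whole list, which gave 2258 groups, of which 69.8% held 1 peak. The Cenpe group, with 20, was the sixth largest, as 5 groups were larger and the largest held 78. The Kif11 group, with 10, was 1 of 31 groups (1.37%) of at least 10 peaks. The other 7 genes had groups of 1 to 3 peaks. Of the 42 peaks, 30 thus lay in a group of at least 10, against 13.1% of the whole list, and all 30 belonged to the 2 motors. At least 1 other peak of the strand within 20 kb was found for 39 of the 42, against 60.8% of the whole list. Since Cenpe and Kif11 were chosen with their many peaks known, these shares describe them and are not evidence about mitosis genes in general.

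**Figure D3:**
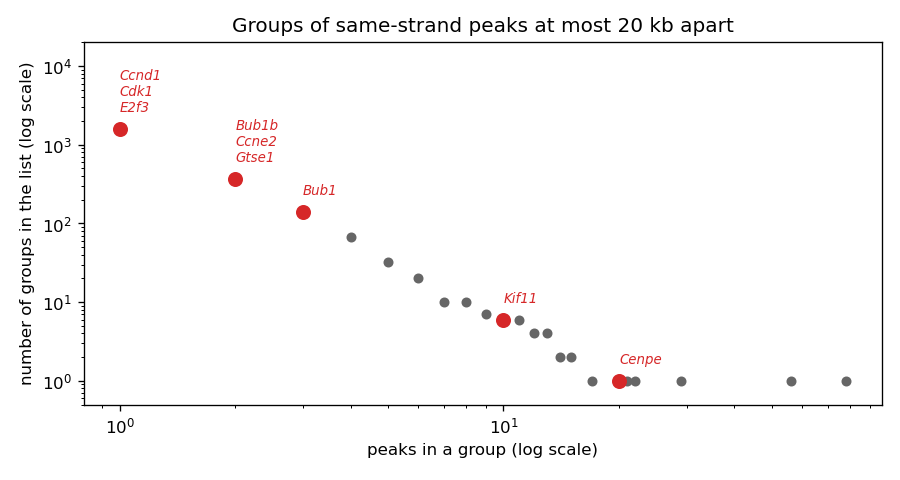
The horizontal axis is the number of same-strand peaks in a group and the vertical axis the number of groups of that size in the whole list, both on log scales. Red points mark the sizes of the groups of the 9 genes: Cenpe (20) and Kif11 (10) lie far to the right of the 1575 groups of 1 peak, and the other 7 genes are at 1 to 3.

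The peaks stood apart from other peaks of the list. The 20 kb limit cut through no group, since the farthest peak taken lay 7639 bases outside its named span (Cenpe) and the nearest same-strand peak not taken lay 55.1 kb away (Gtse1, score 8.26). No peak on the opposite strand lay within 20 kb, the nearest being 86.1 kb from Bub1b. Of the 42 peaks, 35 lay within the named spans. The other 7 were 5 of Cenpe and 1 each of Bub1b and Ccne2. In the gene order of GRCr8 the neighbours are LOC120100621 and Bdh2 for Cenpe and Ide and Hhex for Kif11, and peaks that only position assigns were not checked against an annotation of rn5.

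The peaks had a median length of 147.5 bases (34 to 578 bases), beside 152 bases over the list. In the whole list, 30.3% of starts lay 1 base past a multiple of 20 and 30.4% of ends at one, and such edges are called on the steps here. Both edges were off these steps in 31 of the 42 peaks (73.8%), against 51.6% of the whole list. This was so for 15 of 20 peaks in Cenpe, 8 of 10 in Kif11 and 8 of 12 in the other 7 genes. A length, end minus start, that is a whole multiple of 3 bases was found for 21 of the 42 (39.9% of the whole list had one), and 15 of the 21 were peaks of Cenpe. With lengths counted as end minus start plus 1, it was 9 of the 42 (21.4%), against 29.5% of the whole list. The contrast thus depends on how length is counted. Both edges were on the steps in 1 of the 42, in Cenpe, against 12.3% of the whole list. The authors kept sites by their overlap with exons, and whether these edges are exon ends was not tested, since no sequence or annotation of rn5 was used here.

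The other genes of mitosis were looked up by name. Of 101 further genes of the spindle, kinetochore, checkpoint, cyclins and E2F family, 25 had a named peak in the annotation rows used here, 38 peaks in all. The same rows name 377 of the 23154 protein-coding genes of GRCr8 (1.63%), beside 24.8% of the 101. Which of the 23154 are expressed in the nerve cannot be read from the list, so no share over expressed genes is given. The 101 were listed with earlier results of these data known, and the rows hold only sites higher after SNI. They are also only part of the list, so the true numbers may be higher, and no test of enrichment was made. Scores of at least 8 were found in 23 of the 38 (60.5%), beside 38.0% of all 526 named rows, 37.1% of the whole list and 36.8% of the 19 named peaks above. Among other kinesins, 5 of 12 genes had a named peak. The highest score was that of Kif22, which moves chromosome arms away from the poles, with 12.9 on chromosome 1 from 205467532 to 205467610. Kif4a, which acts on the central spindle, had 3 peaks, with scores of 9.75, 9.13 and 7.68. Kif14, Kif15 and Kif20b had peaks from 5.30 to 10.9. Each of these 5 had at most 3 named peaks, against 6 for Cenpe and 5 for Kif11 in the same rows. Cenpe and Kif11 were chosen with their many peaks known, so this difference is only a description of them.

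Among centromere and kinetochore genes, 4 of 20 had a named peak. Cenpf, a large kinetochore protein of G2 and mitosis, had scores of 11.7 and 8.77, and Ska3, which holds kinetochores to microtubules, had 11.3. Sgol2 and Casc5 had scores of 8.24 and 7.41. Among checkpoint proteins and mitotic kinases, 3 of 13 had a peak, namely Mastl (11.1), Incenp (10.8) and Cdca8 (7.06), the last 2 being partners of Aurora B. Among genes of the spindle and cytokinesis, 6 of 16 had a peak, led by Tpx2, which activates Aurora A, with 12.8 and 11.7. Hmmr followed with 11.5, and Anln, Aspm, Cit and Diaph3 had peaks from 6.08 to 9.72. Among genes of anaphase and chromatid separation, 5 of 14 had a peak, among them the condensin gene Ncapg with 10.7, while Anapc10, Ncapd2, Smc2 and Smc4 had 5.75 to 8.47. Mki67, the gene of the proliferation antigen Ki-67, had 3 peaks with scores of 11.7, 11.5 and 7.74.

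Of 13 further cyclins, cyclin-dependent kinases and their inhibitors, 0 had a named peak in the rows used here, and of 12 further E2F and pocket proteins and mitotic transcription factors, 1 had, E2f7, with a score of 5.02. A gene without a named row may still have a peak in the list.

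**Figure D4:**
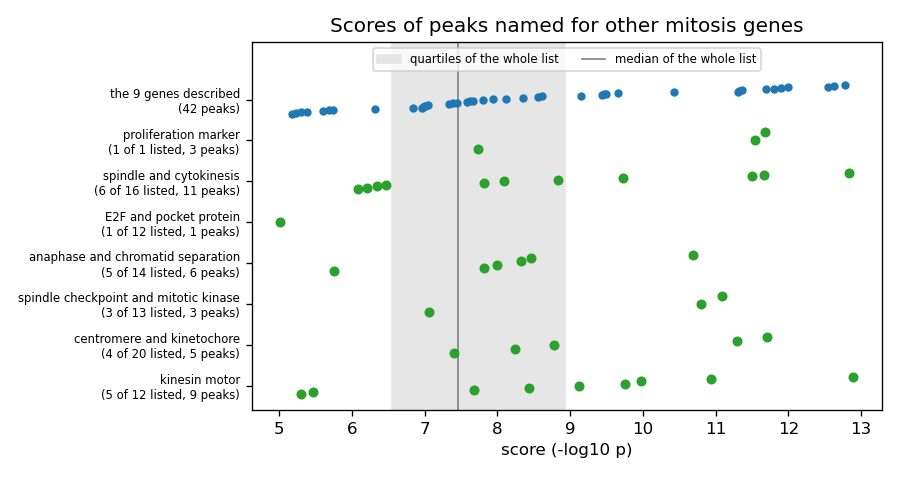
Each green point is a peak named for another mitosis gene, by role, and each blue point 1 of the 42 peaks described, with the score (−log10 p) on the horizontal axis and the quartiles and median of the whole list in grey. Every role drawn in green but the E2F and pocket proteins has a point above 10, and the blue points span from 5.18 to 12.8.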

How the data were processed

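Poly(A) RNA of the 12 libraries was fragmented, immunoprecipitated for m6A or kept as input, and sequenced. Per the labels and the study's methods, the authors trimmed reads with cutadapt (1.9.3), aligned them to rn5 with HISAT2 (2.0.4), found peaks by MACS and tested SNI against control using diffReps. The authors deposited 1 list of differential sites, whose values are −log10 p-values over all animals. The depth is not in the list, so no precision can be given for a score.

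Here the list was read as deposited. Peaks were assigned by position and strand, ranked by score and joined to groups at gaps of at most 20 kb. Length is end minus start. Gene names were read from the submitters' annotation of sites higher after SNI. Only 526 rows, a part of that annotation, were at hand, so a peak unnamed here may be named in the rest. All 526 were found in the list by identical chromosome, start and end, and all are sites higher after SNI. The source of these names therefore fixes the direction of the named peaks, and no direction is given as a result. The genes and lists were chosen with earlier results of these data known, and the promoter motifs after the promoters had been seen. All 9 genes, with every peak, and every listed mitosis gene with a named peak were to be named; some genes are not reported here. Members share transcripts and are not replicates, so no test was run. Intervals used to judge the alternatives are exact 95% binomial intervals (for medians, from order statistics) and cover counting error only. They take the 42 peaks as independent, though 30 of them belong to Cenpe and Kif11. They are also wide (32.0% to 63.6% for the share scoring at least 8), so a value within its interval shows little. The alternatives were other windows, strands, score and length minimums, merging, and named peaks alone. Functions were tested on simulated data. The work used matplotlib 3.10.9, scipy 1.17.1, pandas 2.3.3 and numpy 2.4.6 under Python 3.11.15.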

Additional observations from a re-analysis of the deposited data

How the results depend on the processing

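Of 56 values under an alternative, 48 stayed close to the reported value and 8 moved. Close means within its interval, or for counts by a factor of at most 1.5. The 50 kb window, taking both strands and merging returned the same 42 peaks, so their values could not move. Most other settings kept a part of the same peaks, so the 48 are no evidence that the results are robust. A score of at least 8 left 20 of the 42 peaks, 3 genes with 2 or more peaks in place of 6, and a median score of 10.9 (9.63 over the list so restricted). Keeping only peaks named in the annotation left 19 peaks and 3 genes with 2 or more. A threshold of 10 gave a share of 26.2% in place of 47.6%. With at least 1 edge off the 20-base steps the share was 97.6% in place of 73.8%, against 87.7% of the list. All of these shifts but those of the named peaks follow from the stricter or looser rule itself. Leaving out Cenpe, an alternative chosen after seeing the data, lowered the median length from 147.5 to 115.5 bases, while the other values without Cenpe stayed within their intervals. Windows of 5 kb and 50 kb gave 41 and 42 peaks, and taking both strands gave 42.

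No paired analysis was possible because the list has no value per library, and for the same reason no replicate was left out. How depth limits the list was not tested.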

Other observations

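The lengths of the Cenpe peaks were often whole multiples of 3 bases, a pattern noticed in the data and given here as a description. Among peaks with both edges off the 20-base steps, the length was such a multiple in 12 of 15 in Cenpe (80.0%), 938 of 2071 in the list (45.3%), 2 of 8 in Kif11 and 4 of 16 in the 8 genes other than Cenpe. In 12 other groups of at least 10 peaks, each with at least 10 such peaks, the share ran from 9.09% to 100.0%, and 2 of the 12 were at or above Cenpe. Counting lengths as end minus start plus 1 leaves 2 of the 15 (13.3%), against 557 of 2071 in the list (26.9%), so the pattern depends on how length is counted. In addition, 3 of the Cenpe peaks were 159 bases long, starting at 258931032, 258942694 and 258951402, a length that 16 peaks of the list have (0.399%). Whether these peaks are exons of equal length was not tested.

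Peaks carry a number in their names that rises with position on every chromosome, up to 1395130, and 0.288% of the numbers up to the highest are in the list. What the missing numbers stand for is not given in the sources used here. From the leftmost to the rightmost Cenpe peak there are 58 numbers, of which 20 (34.5%) are in the list. In Kif11 it was 10 of 34 (29.4%), in Bub1 3 of 11 (27.3%) and in Gtse1 2 of 3, while the 2 peaks of Bub1b and the 2 of Ccne2 have adjoining numbers. The median step between neighbouring peaks of the list on a chromosome was 28 numbers.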
